A study of Mus musculus with 6 samples.

Results

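Sox1, Sox2, Sox3, Sox4, Sox5, Sox6, Sox8, Sox9, Sox11 and Sox21 are transcription factors of the SOX family that are known from neural and glial progenitors. They were taken by name, as every array probe that is no control and that carries 1 of these 10 gene names, out of 34836 gene names on the array. The names gave 17 probes, and 15 of them were well above background on all 6 arrays. Each of the 10 genes had at least 1 such probe, which for Sox5 was only a repeat. Gene expression had been measured in 2 fractions of GLAST+ cells from neonatal mouse cerebellum, with 3 arrays each and 1 biological replicate per array. A+/G+ cells (ACSA-2 positive, GLAST positive) and A-/G+ cells (ACSA-2 negative, GLAST positive) came from untreated wild-type animals, which the labels give as strain CD1 at postnatal day 1 to 3, with 50000 cells per sample. The methods of the paper name another mouse background for wild-type animals and a younger age for these samples, and this was not resolved here. Cerebella of either sex were pooled before magnetic sorting, so a replicate is a pool and not 1 animal. The A+/G+ fraction was taken in 1 step with beads against ACSA-2, whereas for A-/G+ the cells that carry L1CAM, ACSA-2, CD45, PSA-NCAM or Ter119 were removed before GLAST+ cells were selected, so the fractions also differ in these depletions.

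SOX proteins bind DNA through an HMG box and usually act together with partner factors. The SOXB1 genes (Sox1, Sox2, Sox3) keep neural progenitors undifferentiated, and Sox21, of the SOXB2 group, is known to counteract them. The SOXC genes (Sox4, Sox11 and Sox12) act in neuronal differentiation and in progenitors, the SOXD genes (Sox5, Sox6) modulate other SOX factors, and the SOXE genes (Sox8, Sox9, Sox10) act in the specification of glia, with Sox9 in astrocytes and radial glia and Sox10 in the oligodendrocyte lineage. In the cerebellum, Bergmann glia and the astroglial progenitors of the prospective white matter carry SOX2 and SOX9.

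Probes are given by the first 30 of their 60 bases, 5′ to 3′, in lower case. They are the probes of these genes and of Sox12 with a limma adjusted p of at most 0.05 between the fractions. Sox1 probe 1, which missed this limit, is given beside Sox1 probe 2. The 3 Sox5 probes are given because the brightest of these is a repeat. Probe 1 of a gene is its brightest over the 6 arrays. No letters are set in capitals here.
Sox1 probe 1: ttcaagaatgacgcccactgctttctgatg
Sox1 probe 2: cgtcaacggcacggtgcccctgacgcacat
Sox3: ggaaggggttattttgttccaggttttttc
Sox4 probe 2: ttttctgcaatgaagacagaaagaaggctc
Sox11 probe 2: aaccattctgtattgaaactcttgctataa
Sox12: atttaaggtggtgtgctccataaattgtgt
Sox5 probe 1: ggaggaggaggaagaggaggaggaggaaga
Sox5 probe 2: ctgggcccatgggcaaattcaatcagatgc
Sox5 probe 3: ttacaagcaaaaacgtcatcaagaagaaga
In the array's annotation on mm9, the Sox1 probes lie at chr8:12399496-12399555 and chr8:12397503-12397562 on the plus strand, the Sox3 probe at chrX:58144564-58144623 on the minus strand, the Sox4 probe at chr13:29042856-29042915 on the minus strand, the Sox11 probe at chr12:28019541-28019600 on the minus strand and the Sox12 probe at chr2:152220036-152220095 on the minus strand. Their borders against coding and untranslated sequence were not analysed here. Among the probes of these 10 genes and Sox12, the longest run of bases that a probe shared with a probe of another of these genes was 8, and no probe other than Sox5 probe 1 shared a run of 20 bases with any probe of another gene name. Sox5 probe 1 consists of purines over 100% of its length, is placed by the annotation with only 27 of its bases (chr6:143776945-143776971, minus strand), and shared a run of at least 20 bases with 18 probes of other gene names.

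The values below are log2 normalized signals, that is, the scanner software's background-corrected intensity on the log2 scale after quantile normalization of the 6 arrays. The sorting target Atp1b2 (ACSA-2) was 12.97, 12.70 and 12.81 in the A+/G+ samples, always in the order of replicates 1, 2 and 3, against 10.86, 10.82 and 10.31 for A-/G+ (difference 2.16, limma adjusted p = 0.00725). Slc1a3 (GLAST) and the other 8 astroglia markers were measured well above background throughout, and so were 3 of 4 cerebellum markers, whereas En1 was so on no array. Of forebrain markers, Emx1 was above background on no array, and Lhx2 on the 3 A+/G+ arrays and 1 A-/G+ array. The arrays themselves differed. The 75th percentile of the intensity was 329 to 332 for A+/G+ but 55.9, 112 and 250 for A-/G+, and 26476 to 26655 against 18340, 21416 and 24730 probes were well above background. A-/G+ replicate 3 stood apart from the other A-/G+ arrays and lay nearer to A+/G+ in neuronal and endothelial markers, with a summed endothelial signal of 7810 against 7520 to 11400 in A+/G+ and as little as 1520 in A-/G+. Differences are therefore given also without this array where they turn on it. The A-/G+ arrays that then remain are those with the lower 75th percentiles, 55.9 and 112. Since the A+/G+ arrays shared 1 slide and the A-/G+ arrays the other, a slide effect and the fraction cannot be told apart.

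On probes well above background, no member differed by more than 2.40-fold between the mean signals. By the brightest probe of each gene, Sox3 was higher in A+/G+, whereas no member passed in the other direction, at an adjusted p of at most 0.05 (limma with Benjamini-Hochberg adjustment over all 55681 probes; 1 and 3 members, respectively, at an unadjusted p under 0.05). By any probe, 4 of 10 genes passed, namely Sox3 toward A+/G+ and 1 probe each of Sox1, Sox4 and Sox11 higher in A-/G+. Of the 17 member probes, 1 passed as higher in A+/G+, against 4.65% of all probes on the array and 7.01% of the 17957 probes well above background on all arrays. As higher in A-/G+, 3 of 17 passed, against 4.64% of all probes and 11.9% of those well above background on all arrays. No member passed the study's double limit of adjusted p and medians at least 4-fold apart, which 1.93% of all probes passed in either direction. The mean favoured A+/G+ for 3 genes and A-/G+ for 7, and the median difference of the brightest probes (A+/G+ minus A-/G+) was -0.34, beside -0.04 for all probes. The 7 genes, this median and the 3 members at an unadjusted p under 0.05 include Sox5 through its repeat probe. That probe shares sequence with probes of other gene names, so it is no usable measure of Sox5. In sorted pools, fewer cells that carry a transcript and less of it per cell cannot be told apart.

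**Figure D1:**
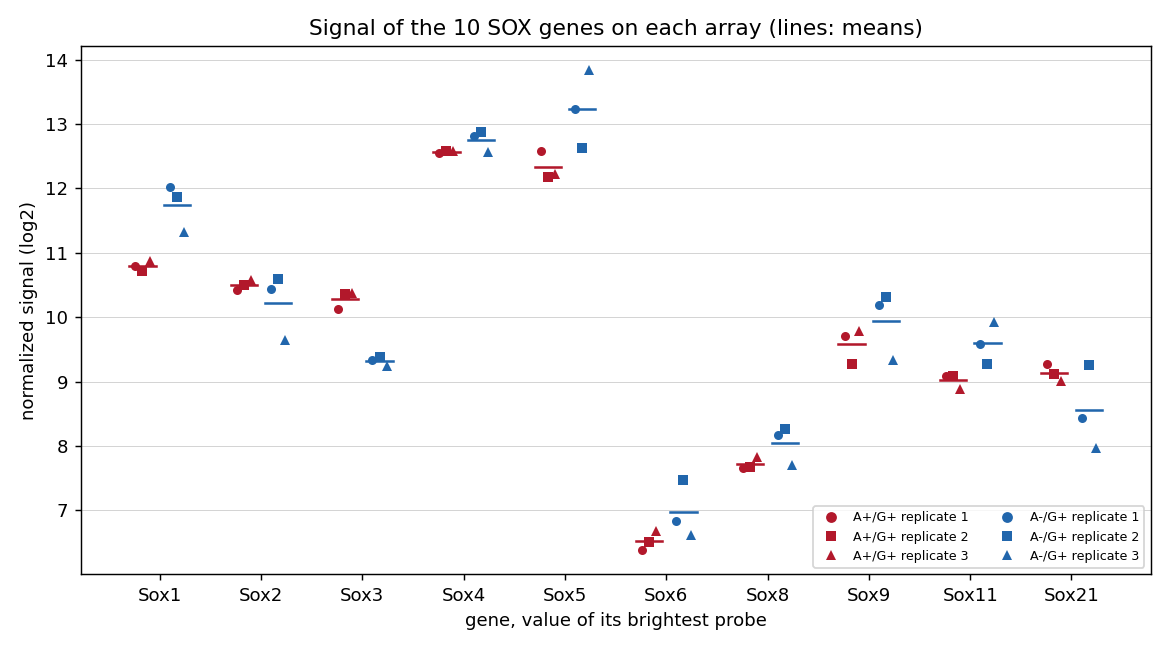
Log2 normalized signal of the brightest probe of each of the 10 SOX genes on the 3 A+/G+ arrays (red) and the 3 A-/G+ arrays (blue), with the replicate by symbol and the mean of each fraction as a line. Sox3 lies higher on all A+/G+ arrays (10.13 to 10.37 against 9.24 to 9.38) and Sox1 higher on all A-/G+ arrays (11.32 to 12.02 against 10.72 to 10.88). Levels of different genes are those of different probes and are not comparable. The Sox5 values are those of its repeat probe.

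The SOXB1 genes went in different directions. Sox3, a regulator of progenitor maintenance in the embryonic neural tube, was 10.13, 10.36 and 10.37 in A+/G+ and 9.33, 9.38 and 9.24 in A-/G+. Its values in the fractions did not overlap, and the spread within each was small (SD 0.14 and 0.07, n = 3). Sox3 was 1.96-fold higher in A+/G+ (difference 0.97, SE 0.09, 95% interval 0.73 to 1.21, limma adjusted p = 0.00947; exact permutation p = 0.1 two-sided, the lowest value possible with 3 arrays per fraction). The difference was 0.93 without A-/G+ replicate 3 (limma adjusted p = 0.0156). Without A+/G+ replicate 2 it was 0.93 as well, with an adjusted p of 0.051. Among markers of other cells, 3 of 6 ependymal and 4 of 6 Purkinje cell genes also passed as higher in A+/G+, where 4.65% of all probes passed. The summed signals of these lists were 5010 to 7180 against 1650 to 5840 and 4940 to 13600 against 1590 to 2010, respectively. The ependymal sum includes Mcidas, which was 10.85, 10.51 and 10.68 in A+/G+ and 12.43, 10.49 and 10.28 in A-/G+. Foxj1, Tmem212 and Rsph1, which passed, did not overlap between the fractions. Of the microglia and blood cell genes, 0 of 5 passed by limma, and 2 had an unadjusted p under 0.05. The part of such cells in the Sox3 difference was not tested.

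Sox1, which marks neuroepithelial progenitors and in the mature cerebellum Bergmann glia, had the opposite direction. Its brightest probe gave 10.79, 10.72 and 10.88 in A+/G+ and 12.02, 11.87 and 11.32 in A-/G+. Every A-/G+ array was higher than every A+/G+ array, by the least for A-/G+ replicate 3. Sox1 was 1.92-fold higher in A-/G+ on this probe, which missed the limit (difference -0.94, SE 0.20, 95% interval -1.46 to -0.42, limma adjusted p = 0.0561). Without A-/G+ replicate 3, the difference was -1.15 and passed (limma adjusted p = 0.00866). This probe did not pass without any other single array (limma adjusted p = 0.103 to 0.188). The dimmer Sox1 probe gave 5.75, 5.97 and 5.96 in A+/G+ and 7.24, 7.38 and 6.85 in A-/G+, again with no overlap. On this probe Sox1 was 2.40-fold higher in A-/G+ (difference -1.26, SE 0.16, 95% interval -1.68 to -0.84, limma adjusted p = 0.0175). This call was lost without A-/G+ replicate 1 (adjusted p = 0.0505) and without A+/G+ replicate 1, 2 or 3 (adjusted p = 0.0702, 0.0748 and 0.076), with differences of -1.30 to -1.19. Of 6 genes of GABAergic progenitors and interneurons, 2 passed, both higher in A-/G+, where 4.64% of all probes passed. The mean favoured A-/G+ for 3 of the 6 and A+/G+ for the other 3. Ptf1a, a progenitor gene of cerebellar GABAergic neurons, was among those that passed (difference -2.69, limma adjusted p = 0.0134). Pax2, which marks their interneuron precursors, was above background on no array. Of 6 granule neuron lineage genes, Pax6 was higher in A-/G+, and the other 5 did not pass and had the higher mean in A+/G+. The part of these cells in the Sox1 difference was not tested.

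Sox2, the best known factor of neural stem cells and a marker of cerebellar astroglia, was 10.42, 10.50 and 10.58 in A+/G+ and 10.44, 10.59 and 9.65 in A-/G+. A-/G+ replicates 1 and 2 fell within or beside the A+/G+ range and replicate 3 was lower, so the fractions overlapped (difference 0.27, SE 0.27, 95% interval -0.42 to 0.97, limma adjusted p = 0.584). Without A-/G+ replicate 3 the difference was -0.02. Sox2ot, the transcript that overlaps Sox2 on the same strand, was 7.95, 7.27 and 7.91 in A+/G+ and 8.72, 8.77 and 8.27 in A-/G+ without overlap, and missed the limit (difference -0.88, SE 0.25, limma adjusted p = 0.108).

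Set against each other on the same array, the Sox3 and Sox1 probes moved apart. Only the change of this difference between the fractions can be read, since the 2 probes have different sensitivities, and it does not depend on a shift of a whole array. Sox3 minus Sox1 was -0.67, -0.35 and -0.50 in A+/G+, compared with -2.69, -2.48 and -2.08 in A-/G+. The arrays of the 2 fractions lay far apart, including A-/G+ replicate 3. The change was 1.91 on the log2 scale or 3.76-fold. For Sox3 against Sox2 the change was 0.70, and for Sox1 against Sox2 it was -1.21. In each of the 3 pairs compared the fractions did not overlap (exact permutation p = 0.1, two-sided, and 0.1 after adjustment over the 3 pairs). For Sox3 minus Sox1 this outcome was fixed, since each gene alone did not overlap and the directions were opposite. The pairs also share genes. The changes therefore restate the values of the single genes and are no further evidence.

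**Figure D2:**
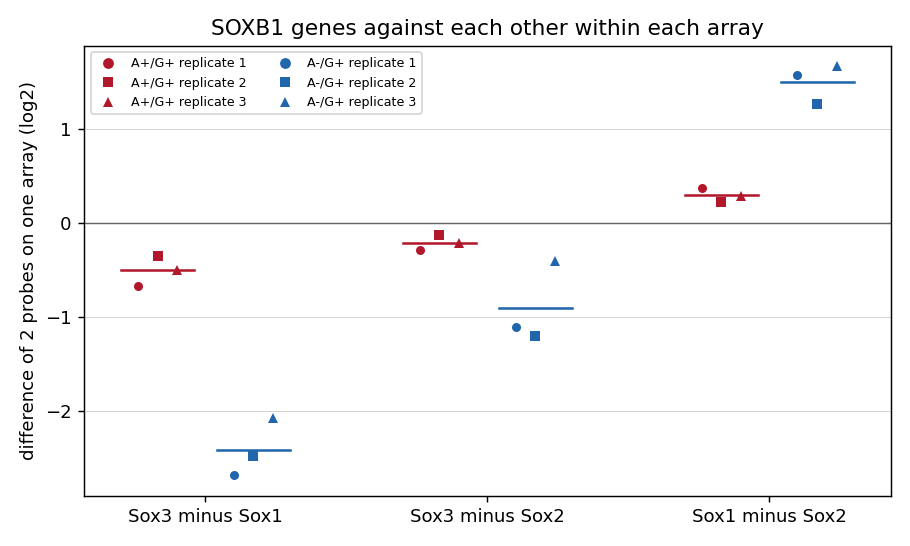
Difference of 2 SOXB1 probes on the same array (log2) for 3 pairs of genes, with A+/G+ arrays in red, A-/G+ arrays in blue, the replicate by symbol and means as lines. Sox3 minus Sox1 lies between -0.67 and -0.35 in A+/G+ and between -2.69 and -2.08 in A-/G+.

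Genes with the pattern nearest to those of Sox3 and Sox1, the members at either end of the differences, were searched among 17951 probes well above background on all arrays, by the mean absolute difference of centred log2 values over the 6 arrays. For Sox3 these were Itm2c (0.0353), Efemp2 (0.0355) and Yipf4 (0.0534). For Sox1 they were Rgl3 (0.0281), Ldlrad3 (0.0365) and Pvrl3 (0.0403). The measure orders probes by likeness and is no test.

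Sox21, the SOXB2 member, varied within A-/G+ more than between the fractions. Its brighter probe gave 9.28, 9.11 and 9.01 in A+/G+ and 8.44, 9.25 and 7.97 in A-/G+, and its dimmer probe gave 7.86, 7.89 and 7.72 against 6.57, 7.93 and 6.41. On both probes A-/G+ replicate 2 lay with or above the A+/G+ arrays while replicates 1 and 3 were lower. The differences were 0.58 (SE 0.35, limma adjusted p = 0.419) and 0.85 (SE 0.44, limma adjusted p = 0.349). The differences were 0.93 and 1.33 without A-/G+ replicate 2, and only the dimmer probe passed (adjusted p = 0.0803 and 0.0193). They were 0.29 and 0.57 without A-/G+ replicate 3, and neither passed (adjusted p = 0.544 and 0.457).

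The SOXC genes had the lower mean in A+/G+ on all of their 6 probes, and 3 of the 6 passed, 1 for each gene, against 11.9% of probes well above background that passed in this direction. Sox12 is not among the 10 genes and is given here to complete this group. It was the only gene that passed among the 10 other SOX genes on the array. Adding it raised the share of SOXC probes that passed, and the SOXD and SOXE groups were not counted with their further genes Sox13 and Sox10. Sox4, which is required for the survival and differentiation of young neurons together with Sox11, had its passing probe at 10.90, 11.06 and 11.07 in A+/G+ and 11.40, 11.44 and 11.47 in A-/G+. This step was small and the arrays of each fraction lay close together, so the fractions did not overlap. Sox4 was 1.34-fold higher in A-/G+ on this probe (difference -0.43, SE 0.07, 95% interval -0.60 to -0.25, limma adjusted p = 0.0293).

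The brightest Sox4 probe showed less, with 12.55, 12.58 and 12.58 in A+/G+ and 12.81, 12.88 and 12.56 in A-/G+. A-/G+ replicate 3 lay among the A+/G+ arrays (difference -0.18, SE 0.10, limma adjusted p = 0.381), and without it the difference was -0.28 and passed (limma adjusted p = 0.0445). The probe did not pass without any other single array (limma adjusted p = 0.531 to 0.611). The dimmest Sox4 probe, at 9.85, 9.92 and 9.94 against 10.34, 10.70 and 10.05, had a difference of -0.46 (SE 0.18, limma adjusted p = 0.211). The 3 probes therefore had the same direction, with differences from -0.46 to -0.18.

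For Sox11, the dimmer probe gave 8.84, 8.77 and 8.49 in A+/G+ and 9.27, 9.32 and 9.35 in A-/G+, and the brighter probe gave 9.09, 9.09 and 8.88 against 9.59, 9.28 and 9.92. On both probes every A-/G+ array was higher than every A+/G+ array. The dimmer probe was 1.53-fold higher in A-/G+ (difference -0.61, SE 0.11, 95% interval -0.89 to -0.34, limma adjusted p = 0.0338), and the brighter probe missed the limit (difference -0.57, SE 0.18, limma adjusted p = 0.138).

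Sox12 was 5.92, 6.15 and 5.99 in A+/G+ and 6.66, 7.05 and 7.03 in A-/G+. It was 1.86-fold higher in A-/G+ (difference -0.90, SE 0.14, 95% interval -1.25 to -0.55, limma adjusted p = 0.0252). These calls were not stable to the loss of an array, although the directions were. The passing Sox4 probe kept its call only without A-/G+ replicate 3 (adjusted p = 0.0446) and had an adjusted p of 0.0551 to 0.102 without any other array. The passing Sox11 probe lost its call without each array in turn (adjusted p = 0.0568 to 0.111), and Sox12 lost it without A+/G+ replicate 1, 2 or 3 (adjusted p = 0.0957, 0.0808 and 0.106) and without A-/G+ replicate 2 (adjusted p = 0.0684).

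SOXC genes are also expressed in young neurons. None of 10 pan-neuronal genes passed in either direction by limma (2 at an unadjusted p under 0.05, both higher in A+/G+), 7 of them had the higher mean in A+/G+, and their summed signal was 11700 to 20700 in A+/G+ and 7460 to 15100 in A-/G+, with the highest A-/G+ value in replicate 3. All 6 cycling-cell genes had the higher mean in A-/G+, and 2 of them passed, Mki67 (difference -0.78, limma adjusted p = 0.0266) and Ccnb1 (difference -0.74, limma adjusted p = 0.0172). In this direction 4.64% of all probes passed, and 11.9% of those well above background on all arrays. Cdk1, one of the 6, was well above background on only 1 array of each fraction. The summed signal of the cycling-cell genes was 14200 to 17100 for A+/G+ and 20600 to 25400 for A-/G+. Whether cycling cells had a part in the SOXC and Sox1 differences was not tested.

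**Figure D3:**
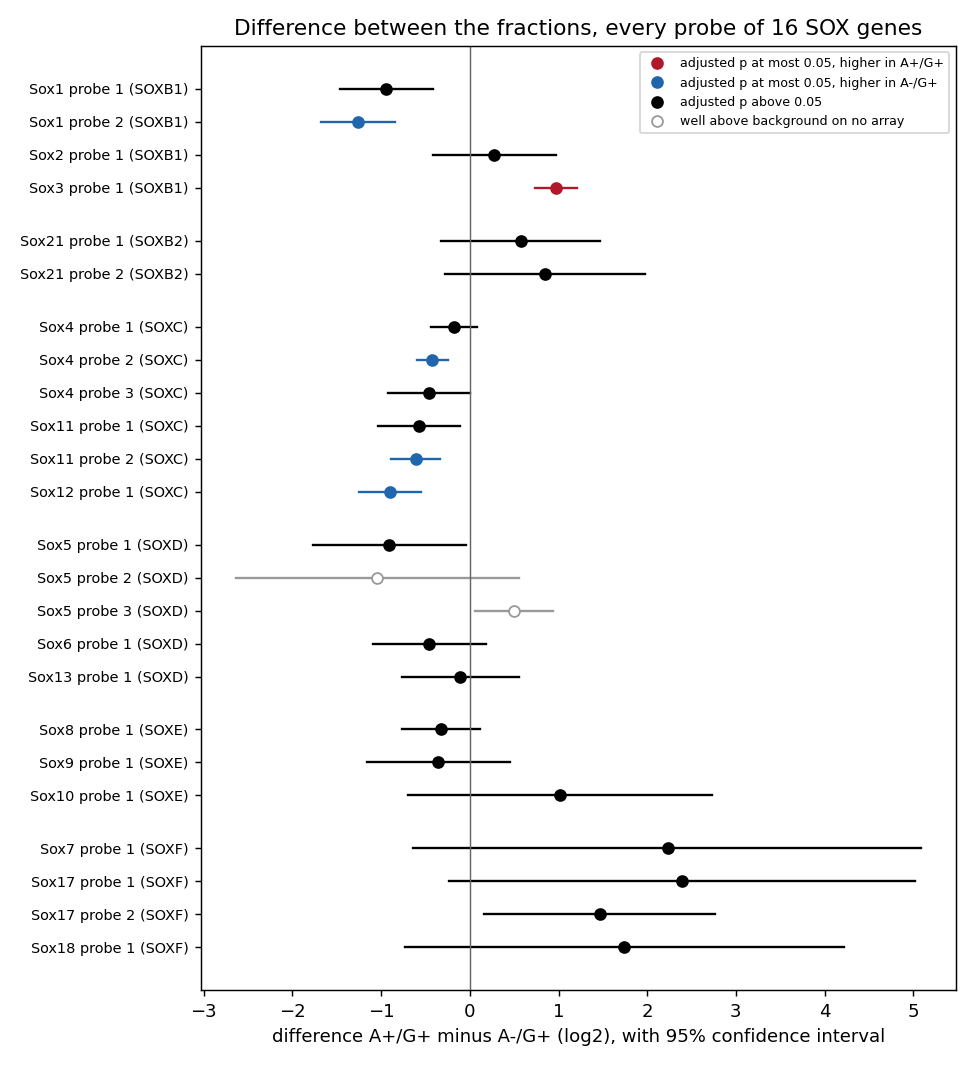
Difference A+/G+ minus A-/G+ (log2) with its 95% confidence interval for every probe of the 10 SOX genes and of Sox7, Sox10, Sox12, Sox13, Sox17 and Sox18, grouped by SOX subfamily, with probes at an adjusted p of at most 0.05 in red or blue and probes above background on no array as open circles. The 6 SOXC probes all lie left of 0, the Sox1 and Sox3 probes lie on opposite sides, and the brightest probes of Sox7, Sox17 and Sox18 have the widest intervals.

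The upstream sequences of the 3 SOXC genes are given from RefSeq as the 250 bases before the annotated start on GRCm38.p6, in the direction of the gene. Each of these genes had 1 probe that passed as higher in A-/G+, which for Sox4 and Sox11 was not the brightest. Of 11 genes looked up (the 10 members and Sox12), 9 had an entry. Capitals mark CCAAT boxes (CCAAT, or ATTGG for the other strand), a motif that was picked after these sequences had been read.
Sox4, chr13:28953700-28953949, minus strand: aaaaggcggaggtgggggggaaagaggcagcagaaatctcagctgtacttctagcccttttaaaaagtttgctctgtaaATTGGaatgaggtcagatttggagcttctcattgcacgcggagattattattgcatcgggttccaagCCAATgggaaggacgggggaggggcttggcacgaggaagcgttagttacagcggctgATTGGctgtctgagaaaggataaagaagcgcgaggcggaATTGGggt
Sox11, chr12:27342719-27342968, minus strand: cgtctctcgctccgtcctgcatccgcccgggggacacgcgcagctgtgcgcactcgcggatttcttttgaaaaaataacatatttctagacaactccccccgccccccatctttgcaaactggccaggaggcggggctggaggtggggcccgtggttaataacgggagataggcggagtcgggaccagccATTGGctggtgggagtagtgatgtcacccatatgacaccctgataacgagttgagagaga
Sox12, chr2:152398047-152398296, minus strand: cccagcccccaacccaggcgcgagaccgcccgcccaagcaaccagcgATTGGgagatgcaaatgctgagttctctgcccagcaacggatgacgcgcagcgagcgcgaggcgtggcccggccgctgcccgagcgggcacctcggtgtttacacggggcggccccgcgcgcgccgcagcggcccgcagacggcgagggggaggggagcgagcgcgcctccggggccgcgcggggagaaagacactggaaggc
A CCAAT box stood 4 times in the Sox4 window and 1 time each in those of Sox11 and Sox12, and 33.8% of the 32851 windows of this length in the table hold at least 1. The windows of Sox1 and Sox2 also hold 1 each, and of the Sox6 windows, one before each of its annotated starts, 1 holds 3 and another holds 1. The GC box GGGCGG, searched on both strands, was in the windows of Sox11 and Sox12 but not of Sox4 (32.7% of all windows). The letters ACAAAG and ACAATG, which are cores of SOX binding sites, were in none of the 3 windows on either strand (16.5% and 10.7% of all windows), nor was TATAAA (12.4%). The 3 windows hold 11, 17 and 35 CG dinucleotides, beside a median of 6 over all windows. These are matches of letters and not measured sites.

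Of the SOXD genes, Sox5 had a signal above background only on its repeat probe. This probe gave 12.58, 12.18 and 12.22 in A+/G+ and 13.23, 12.63 and 13.84 in A-/G+ (difference -0.91, SE 0.34, limma adjusted p = 0.196). The 18 probes of other gene names that share a run of at least 20 bases with it, among them 3 of Cplx2 and 2 of Vash1, had differences from -1.61 to -0.82, all with the higher mean in A-/G+, and 17 of them were well above background on all arrays. Their median was -0.97, and none passed (adjusted p = 0.0623 to 0.53). Of all probes on the array, 0.0413% consist only of purines. The 2 other Sox5 probes, placed with all of their bases in Sox5 (chr6:143787982-143788041 and chr6:143781520-143781579), were well above background on no array, so only a bound holds there and no fold is given. The long noncoding Sox5it and Sox5os3 were above background on no array either.

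Sox6, which acts in oligodendrocyte precursors and keeps progenitors from differentiating, was 6.38, 6.50 and 6.68 in A+/G+ and 6.84, 7.47 and 6.62 in A-/G+. Both fractions overlapped, with A-/G+ replicate 3 among the A+/G+ arrays (difference -0.46, SE 0.25, 95% interval -1.09 to 0.18, limma adjusted p = 0.37). The Sox6 difference was -0.21 without A-/G+ replicate 2 and -0.63 without replicate 3, and neither passed.

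The SOXE members were present in both fractions and overlapped. Sox9 is represented by 10 spots on each array, of which 7 to 10 were used after spots marked as outliers were left out. It was 9.70, 9.27 and 9.79 in A+/G+ and 10.19, 10.31 and 9.34 in A-/G+. Within an array, its spots had an SD of 0.05 to 0.26, whereas the SD over the arrays was 0.27 for A+/G+ and 0.53 for A-/G+. The higher pair of A-/G+ arrays lay above all A+/G+ arrays, and A-/G+ replicate 3 below all but 1 of them (difference -0.36, SE 0.31, 95% interval -1.16 to 0.45, limma adjusted p = 0.554). Without A-/G+ replicate 3 the difference was -0.66 (limma adjusted p = 0.103).

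Sox8, which acts with Sox9 and Sox10 in glia, was 7.65, 7.68 and 7.83 in A+/G+ and 8.17, 8.27 and 7.70 in A-/G+. Again only A-/G+ replicate 3 lay among the A+/G+ arrays (difference -0.32, SE 0.17, 95% interval -0.77 to 0.12, limma adjusted p = 0.363). Without it, the difference was -0.50 and passed (limma adjusted p = 0.0342). Leaving out any other single array gave no call for Sox8 (limma adjusted p = 0.502 to 0.612). Sox1, Sox4 and Sox8 were thus the members that passed as higher in A-/G+ by the brightest probe when A-/G+ replicate 3 was left out. With it none did, also when any other single array was left out. Without A-/G+ replicate 3, 4437 probes passed toward A+/G+ and 4578 toward A-/G+ on the whole array, compared with 2589 and 2583 with all arrays. These counts were 816 to 2016 and 404 to 1831 without any other single array.

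The other SOX genes show where A-/G+ replicate 3 carries weight. Of 10 such genes on the array, Sox12 passed, only Sox12 and Sox13 were well above background on each of the 6 arrays, and Sox14, Sox15, Sox30 and Sry were above background on no array. The SOXF genes Sox7, Sox17 and Sox18 are factors of endothelial cells. Sox17 was 6.17, 6.26 and 6.85 in A+/G+ and 2.14, 3.97 and 5.99 in A-/G+, where only 1 of 3 arrays was well above background. Sox18 was 7.03, 6.97 and 7.44 against 3.56, 5.44 and 7.22. Sox7 was 5.70, 6.12 and 6.35 against 1.83, 3.63 and 6.03. In all of them A-/G+ replicate 3 was at or near the level of the A+/G+ arrays and the other A-/G+ arrays were lower.

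With all arrays none of the SOXF genes passed (limma adjusted p = 0.331 for Sox7, 0.257 for Sox17 and 0.378 for Sox18). Their differences, 2.23, 2.39 and 1.74, rest on A-/G+ arrays that were not well above background (replicates 1 and 2 for Sox7 and Sox17, and 1 array for Sox18), and with normexp background correction they were 0.71, 0.82 and 0.84. Without A-/G+ replicate 3, Sox7 and Sox17 passed (adjusted p = 0.0432 and 0.0449) and Sox18 did not (adjusted p = 0.073), but for Sox7 and Sox17 neither of the remaining A-/G+ arrays was well above background, so that only a bound holds there and no size is given. None of the SOXF genes passed without any other single array. The 6 endothelial markers all had the higher mean in A+/G+, and 1 passed, Cdh5, which encodes VE-cadherin (difference 1.80, limma adjusted p = 0.0182). Their values on A-/G+ replicate 3 were near those of A+/G+ for Cldn5 (12.52 against 12.39 to 13.04) and Kdr (9.40 against 9.39 to 9.73). Flt1 and Tek also lay within the A+/G+ range there. Pecam1 (6.35 against 6.45 to 6.87) and Cdh5 (7.35 against 8.65 to 8.79) lay below it. The part of endothelial cells in the SOXF differences was not tested.

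**Figure D4:**
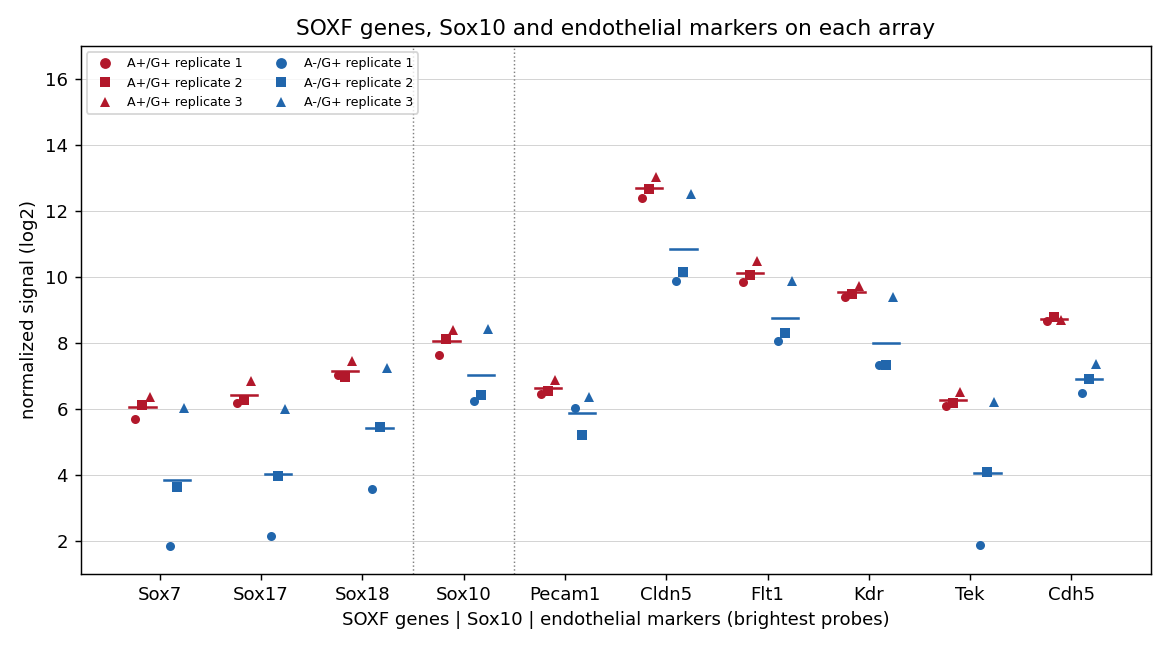
Log2 normalized signal of the SOXF genes Sox7, Sox17 and Sox18, of Sox10 and of 6 endothelial markers on each array, with A+/G+ in red, A-/G+ in blue, the replicate by symbol and means as lines. A-/G+ replicate 3 (blue triangles) lies near the A+/G+ arrays for the SOXF genes and most endothelial markers, and A-/G+ replicates 1 and 2 lie lower.

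Sox10, the SOXE gene of the oligodendrocyte lineage, had the same shape, with 7.62, 8.12 and 8.38 in A+/G+ and 6.22, 6.43 and 8.43 in A-/G+. The difference was 1.02 (SE 0.67, limma adjusted p = 0.462), and 1.72 without A-/G+ replicate 3 (limma adjusted p = 0.0291). Only 2 of the 3 A-/G+ arrays were well above background for Sox10, so these sizes rest in part on an array that was not. With normexp background correction and all arrays, the difference was 0.77. Sox10 did not pass without any other single array (limma adjusted p = 0.577 to 0.689). Oligodendrocyte lineage markers were split. Olig1 (difference 4.43, limma adjusted p = 0.00417), Olig2 (4.23, adjusted p = 0.00389) and Pdgfra (1.70, adjusted p = 0.028) were higher in A+/G+, and Mbp (-0.79, adjusted p = 0.0487) and Nkx2-2 (-1.58, adjusted p = 0.0038) were higher in A-/G+. For Olig1, Olig2 and Pdgfra, A-/G+ replicate 3 stayed below all A+/G+ arrays, at 9.34, 6.52 and 9.46. Olig2, too, was well above background on only 2 of the 3 A-/G+ arrays. Sox13, a SOXD gene, did not pass (difference -0.11, limma adjusted p = 0.82).

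Among 15 genes that are known as partners or targets of SOX factors, 6 passed, with 2 toward A+/G+ (7.01% of all probes well above background) and 4 toward A-/G+ (11.9%). The median difference of the 15 was -0.50. Partners first, Pou3f2 (BRN2), a POU factor that binds with SOX2 at neural enhancers, was 8.69, 8.48 and 8.65 in A+/G+ and 9.45, 9.35 and 9.58 in A-/G+, 1.81-fold higher in A-/G+ (limma adjusted p = 0.0129). A second Pou3f2 probe overlapped between the fractions (difference -0.28, limma adjusted p = 0.592), and another one did not overlap but missed the limit (-0.71, adjusted p = 0.0567). Pax6, a partner of SOX2 that also marks the granule neuron lineage, was 9.37, 9.70 and 9.57 against 11.24, 11.10 and 10.92, 2.90-fold higher in A-/G+ (limma adjusted p = 0.0073). A dimmer Pax6 probe missed the limit (difference -0.77, adjusted p = 0.0829). The fractions did not overlap for either gene on these probes.

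Pou3f1, Pou3f3 and Chd7, a chromatin remodeller that binds SOX2, did not pass (differences 0.32, -0.65 and -0.11, limma adjusted p = 0.565, 0.129 and 0.657), and Pou3f4 was above background on no array. Nfia, which is induced downstream of Sox9 in gliogenesis, was 8.79, 8.66 and 8.68 in A+/G+ and 9.66, 9.63 and 9.08 in A-/G+ and missed the limit (difference -0.75, limma adjusted p = 0.073). Without A-/G+ replicate 3, Nfia passed (difference -0.94, adjusted p = 0.00811). It did not pass without any other single array (limma adjusted p = 0.149 to 0.225).

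Of the targets, Nes, the intermediate filament gene whose neural enhancer SOX2 and POU factors bind, was 11.21, 11.37 and 11.57 in A+/G+ and 12.89, 12.96 and 12.92 in A-/G+. This step was more than the spread of either fraction (2.91-fold higher in A-/G+, limma adjusted p = 0.0051). Col2a1, a collagen gene that Sox9 activates with Sox5 and Sox6 in cartilage, was 10.53, 10.77 and 11.04 against 13.46, 13.65 and 13.14. It was 6.22-fold higher in A-/G+ (difference -2.64, SE 0.20, limma adjusted p = 0.00572), while Sox9 itself overlapped between the fractions.

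Of the 3 genes known to be induced by SOX9 and NFIA in the spinal cord, Mmd2 passed. It was 12.87, 13.04 and 13.24 in A+/G+ and 11.69, 12.18 and 11.76 in A-/G+, 2.26-fold higher in A+/G+ (limma adjusted p = 0.0231). Apcdd1 (difference -0.50, limma adjusted p = 0.518) and Zcchc24 (0.05, adjusted p = 0.89) did not pass. Pdgfra, a receptor gene of oligodendrocyte precursors downstream of SOX factors, was 10.44, 10.70 and 10.63 against 8.67, 8.55 and 9.46, 3.24-fold higher in A+/G+ (limma adjusted p = 0.028). The calls of Mmd2 and Pdgfra were lost without A+/G+ replicate 1, 2 or 3 (adjusted p = 0.067, 0.0984 and 0.0911 for Mmd2 and 0.0918, 0.115 and 0.113 for Pdgfra) and without A-/G+ replicate 1 (0.057 and 0.0732), that of Pdgfra also without A-/G+ replicate 2 (0.0679), and that of Pou3f2 without A+/G+ replicate 2 or 3 (0.0543 and 0.0627).

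Tubb3 and Dcx, neuronal genes that SOXC factors activate, had the higher mean in A+/G+ and did not pass. Tubb3 was 11.63, 10.96 and 10.87 in A+/G+ and 9.58, 9.41 and 11.47 in A-/G+ (difference 1.00, limma adjusted p = 0.446). Dcx was 10.20, 9.92 and 9.46 against 7.97, 8.03 and 9.81 (difference 1.26, limma adjusted p = 0.292). For both, A-/G+ replicate 3 lay among the A+/G+ arrays and the other A-/G+ arrays below. Without it both passed as higher in A+/G+, and for Dcx the difference was then 1.86 (adjusted p = 0.0216). Neither passed without any other single array (limma adjusted p = 0.601 to 0.679 for Tubb3 and 0.419 to 0.57 for Dcx).

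**Figure D5:**
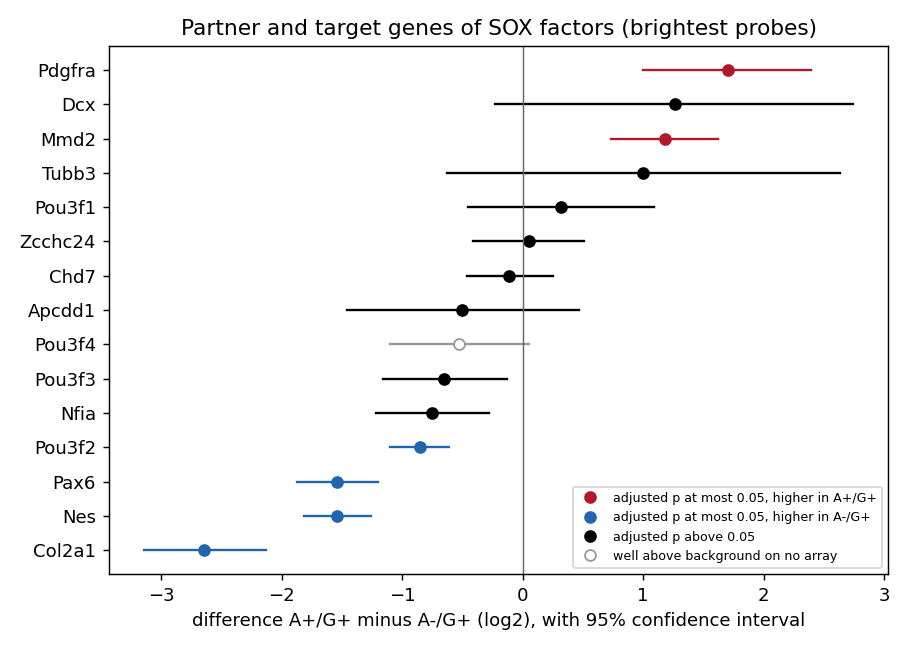
Difference A+/G+ minus A-/G+ (log2) with its 95% confidence interval for the brightest probe of 15 partner and target genes of SOX factors, ordered by the difference and coloured where the adjusted p was at most 0.05. Col2a1, Nes, Pax6 and Pou3f2 lie on the A-/G+ side and Mmd2 and Pdgfra on the A+/G+ side.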

How the data were processed

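The authors hybridized Cy3-labeled RNA to 1-color Agilent mouse arrays and deposited, for each array, the spot intensity from Agilent Feature Extraction 10.7.3.1 (version per the file headers) after its background correction, and a quantile normalized log2 table, which served as an alternative here. The genome annotation of the probes is mm9. Of 62976 spots per array, 59305 are no controls. Spots marked as outliers were left out, intensities were taken to log2 and quantile normalized, and spots of 1 probe were averaged, giving 55681 probes. Fractions were compared with limma 3.58.1 in R 4.3.3, with Benjamini-Hochberg adjustment over all probes and no filter on dim probes. A probe was well above background on an array when the software marked at least 50% of its spots so. A gene takes its brightest probe, and other probes are given where named. Named are the members, the genes of the lists reported and the 3 nearest patterns of 2 members. The members and lists were chosen with earlier results of these data known. The fit was tested on simulated data. Alternatives were another scaling (75th percentile), background correction by normexp (offset 50), the deposited log2 table, dropping dim probes, the methods' t-test with the same adjustment, limma with trend and robust variance, outlier spots kept, averaging a gene's probes, a 2-fold limit, a block for replicate number, and leaving out each array. The slide could not be fitted as a block. Precision is limited by the few arrays, and p-values measure the spread between these sorted pools. The single cell, staining, flow cytometry and grafting data were not analysed here. Some marker genes are not reported here.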

Additional observations from a re-analysis of the deposited data

How the results depend on the processing

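Of 150 values of the 10 members under alternatives, 138 kept their direction and side of the limit, 3 lost and 8 gained a call, and 1 reversed (Sox2, -0.02 to 0.46 without 1 array each, lowest without A-/G+ replicate 3). Sox3 kept its direction under all 15 alternatives (0.90 to 1.05) and passed in 12, and Sox1 kept its own (-1.15 to -0.78) and passed in 5. With a shift to the 75th percentile, which moved the median of all probes from -0.04 to -1.02, 0 members were higher in A+/G+ (Sox3 0.96, adjusted p = 0.0501) and 0 other SOX genes passed, and 1227 of all probes passed toward A+/G+ and 2658 toward A-/G+. The count of members higher in A-/G+ (0) became 1 with normexp, the filter on dim probes, and trend and robust variance (Sox1), and 2 with the mean of all probes (Sox1 and Sox11). With a 2-fold limit of medians, 1 member passed both limits (Sox3). With the methods' t-test, 0 other SOX genes passed. Without 1 array each, members higher in A+/G+ ranged from 0 to 1, members higher in A-/G+ from 0 to 3, other SOX genes from 0 to 4, and partner and target genes from 3 to 10. With the replicate block, 0 members were higher in A+/G+ (Sox3 0.97, adjusted p = 0.0761), and 0 other SOX genes, 0 partner and target genes and 0 of all probes passed. Whether the replicate numbers pair the arrays could not be decided. The deviations of same-numbered arrays from their fraction means correlated at 0.196, 0.113 and -0.114, and those of differently numbered arrays at -0.24 to 0.17. With so few arrays per fraction these deviations are tied to each other. Over all probes, the methods' t-test called 1351 toward A+/G+ and 1197 toward A-/G+. Outside the members, signs reversed for Sox13 (-0.35 to 0.13 without 1 array each), Sox15 (-0.40 to 0.20), Zcchc24 (-0.14 to 0.15, and -0.05 with the 75th percentile) and Sox30 (0.11 with normexp). The cause of these changes was not tested. Sox15 and Sox30 were above background on no array.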
